A study of Mus musculus with 16 samples.

Results

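Dorsal skin of mice that had received both DNCB and BJIKT was compared with dorsal skin of mice that had received neither, in the 8 of the 16 libraries that carry the treatment labels for these groups. The 4 LowAhR+AD+BJ mice and the 4 LowAhR mice were WT C57BL/6 males (C57BL/6N in the methods), bought at 3 weeks of age and adapted for 1 week, and all 8 ate a diet low in ligands of the aryl hydrocarbon receptor (AhR) for 12 weeks. After 2 weeks on the diet, the LowAhR+AD+BJ mice were treated 2 times a week with 1% DNCB (2,4-dinitrochlorobenzene, a hapten that causes contact dermatitis) in acetone and olive oil. From the same day they were gavaged daily with BJIKT (Bojungikgi-tang, a water extract of 8 herbal medicines) at 1 g/kg. Whether the LowAhR mice received the solvent or a water gavage is not given in the sources used here. DNCB, its solvent, the gavage and BJIKT therefore differ together between the groups and cannot be told apart. The other groups of the series, Cont (4 mice on normal chow) and LowAhR+AD (4 mice on the low ligand diet with DNCB and no BJIKT), entered the statistical model, and LowAhR+AD is set beside the comparison where it helps to read a value.

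Keratinocytes of irritated skin leave their normal program of maturation. They make the stress keratins 6, 16 and 17, small proline-rich proteins and antimicrobial proteins, and they release chemokines that draw neutrophils. In atopic dermatitis this goes with signalling by IL-4 and IL-13 through receptors that contain IL4Rα, and with a weak barrier of envelope proteins and ceramides. AhR is a transcription factor that is activated by dietary and microbial ligands. It switches on Cyp1a1, Cyp1b1 and its own repressor Ahrr, and it promotes the formation of the skin barrier.

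Each library held 7436315 to 8773876 counts in the LowAhR group and 10614393 to 12999055 counts in the LowAhR+AD+BJ group, without overlap (two-sided exact permutation test, p = 0.0286, the smallest that 4 against 4 can give). Rn45s, a ribosomal precursor transcript, made up 2.28% to 8.48% of the counts in the LowAhR libraries and 0.783% to 1.61% in the LowAhR+AD+BJ libraries (exact permutation p = 0.0286). Both quantities separate the groups completely, and their part in the results below was not tested. Levels are given in CPM (counts per 1000000 counts, scaled by TMM factors) in the order of replicates 1 to 4, and a count of 0 allows 0.233 to 0.406 CPM in these libraries. Such limits cover counting error only. The basal keratin Krt5 was plentiful in all 8 libraries, with 1411 to 1932 CPM in the LowAhR+AD+BJ group and 1013 to 1232 CPM in the LowAhR group. The suprabasal keratins were low in some LowAhR+AD+BJ libraries. In the same order of groups, Krt10 lay at 53.9 to 1406 and 1853 to 2999.8 CPM, and Krt1 at 15.2 to 1149.6 and 254 to 674 CPM. Each library is 1 mouse, and LowAhR+AD+BJ replicate 3 and LowAhR replicate 4 were the libraries nearest to the other group on the first principal component. LowAhR+AD replicate 1 stood apart from all others on the second. Replicates of a group differed by far more than sampling noise.

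Of 14854 tested genes, 1005 differed between the LowAhR+AD+BJ and LowAhR groups at an adjusted p under 0.05 (edgeR), which is 6.77%. Of these, 541 were higher (3.64%) and 464 were lower (3.12%) in the LowAhR+AD+BJ group. A change of at least 2-fold was seen in 379 of the higher genes (2.55% of those tested) and in 384 of the lower genes (2.59%). The groups did not overlap in 477 of the higher genes (3.21% of those tested) and in 414 of the lower genes (2.79%). Genes without overlap that were not called are not counted here. A lack of overlap in such a gene is given below as a value only. Counts of calls in the gene lists below are to be set against the 3.64% of tested genes that were higher and the 3.12% that were lower. At an unadjusted p under 0.05 in edgeR, 3291 of the 14854 tested genes differed between these groups. List counts at that threshold are to be set against this number. Over all tested genes the median log2 fold change was 0.0078. LowAhR+AD+BJ replicate 3 was the library of its group nearest to the LowAhR group in 408 of the 541 higher genes and in 316 of the 464 lower genes. Without it 1469 genes were called. Without LowAhR+AD replicate 1, 1716 were called. That library is in neither group, but it enters the filter, the scaling and the estimate of the spread. Leaving out any 1 of LowAhR replicates 1, 2 and 3 or LowAhR+AD+BJ replicates 1, 2 and 4 gave 414 to 606 calls. Counts and calls below that are given with 1 library left out come from 12 fits, each without 1 of the 12 libraries on the low ligand diet. In whole skin, a change in the number of cells of a type and a change in RNA per cell cannot be told apart. For comparison, 1876 genes (12.6%) were called in LowAhR+AD against the same LowAhR libraries. Without LowAhR+AD replicate 1 that count was 1718, beside the 1716 given above for LowAhR+AD+BJ. A model of only the 8 libraries of each comparison called 765 genes in LowAhR+AD and 1206 in LowAhR+AD+BJ. Which group had more calls against LowAhR therefore depended on the libraries in the model. None (0 genes, 0%) was called in LowAhR+AD+BJ against LowAhR+AD with edgeR, where 1405 (9.46%) had an unadjusted p under 0.05, and DESeq2 called 17.

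The 8 largest rises by fitted change, among called genes with a group mean of at least 10 CPM and no overlap between the groups, were those of the chemokine Cxcl5, the chitinase-like gene Chil3, the cytokine Il24, the stress keratin Krt6b, the acute phase genes Saa1, Saa2 and Saa3 and 2010005H15Rik, known by a clone name. Cxcl5, a chemokine that attracts neutrophils, had no count in any LowAhR library and 74.1, 103, 0.855 and 19.5 CPM in the LowAhR+AD+BJ libraries. That is at least 129-fold higher when each LowAhR library is set to its limit of 3 counts (adjusted p = 0.006896, edgeR). Chil3, which encodes the chitinase-like protein Ym1 of macrophages and neutrophils, likewise had no count in LowAhR skin and reached 123, 17.6, 4.51 and 27.01 CPM, at least 112-fold higher (adjusted p = 0.00296, edgeR). Il24, a cytokine of the IL-20 family that acts on keratinocytes, had no count in LowAhR skin and 25.1, 20.96, 1.63 and 3.23 CPM with DNCB and BJIKT, at least 33.1-fold higher (adjusted p = 0.00908, edgeR). In each of these genes LowAhR+AD+BJ replicate 3 was the lowest library of its group.

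Krt6b, a stress keratin of injured and thickened epidermis, had 4763, 7074, 3273 and 5629 CPM with DNCB and BJIKT against 23.5, 15.5, 3.38 and 2.27 CPM on the diet alone. The groups lay far apart (log2 fold change 8.86, standard error 1.30, adjusted p = 0.00111, edgeR). Krt6b and its near-identical neighbour Krt6a can share reads, so the split between them is uncertain. The acute phase gene Saa3, made by macrophages, fat cells and epithelia, had 7324, 1786, 610.0 and 957 CPM in LowAhR+AD+BJ and 3.78, 7.802, 8.84 and 3.82 CPM in LowAhR skin, again without overlap (log2 fold change 8.78, standard error 1.14, adjusted p = 5.03e-04, edgeR). Saa1 and Saa2, acute phase genes that are near copies of each other, had 3 counts and 1 count in all LowAhR libraries together. Saa1 had 99.96, 13.2, 10.4 and 14.3 CPM in the LowAhR+AD+BJ libraries, a ratio of 359.5-fold (95% exact interval 123 to 1745, counting error only) with an adjusted p of 0.00536 from edgeR. Saa2 had 26.6, 11.1, 3.498 and 8.47 CPM, a ratio of 381-fold (95% exact interval 68.01 to 15061, counting error only) with an adjusted p of 0.00547 from edgeR. 2010005H15Rik had 1 count in LowAhR skin and 26.4, 7.43, 1.55 and 7.16 CPM in the LowAhR+AD+BJ libraries, a ratio of 326-fold (95% exact interval 58.2 to 12905, counting error only). All 8 of these genes stayed called in each of the 12 fits that left out 1 library.

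**Figure D1:**
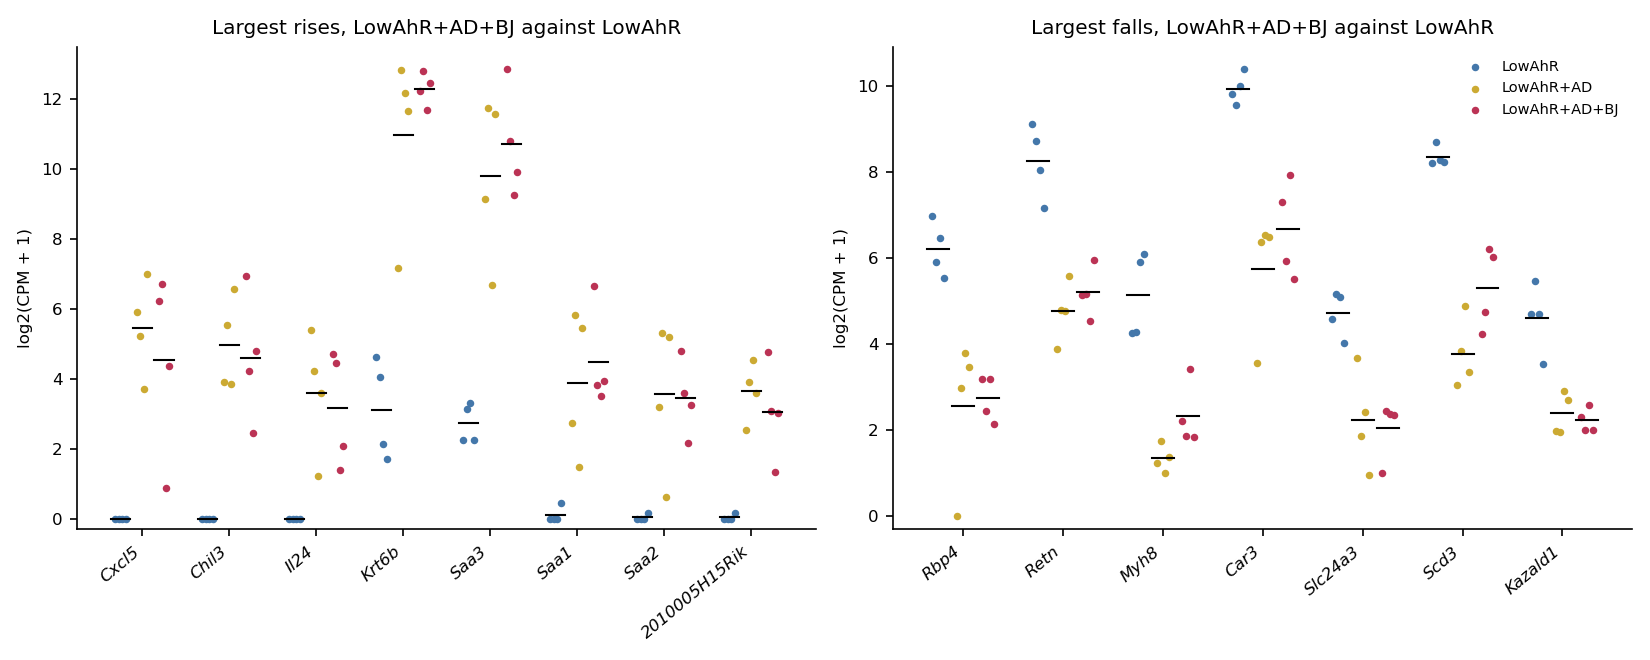
Level of the 8 genes with the largest rises (left) and 7 of those with the largest falls (right) in each library of the 3 groups on the low ligand diet, as log2(CPM + 1) on the y axis, with 1 point per mouse (n = 4 per group) and a bar at each group's mean of these log values. In all 15 genes the LowAhR+AD+BJ points lie on 1 side of all LowAhR points, and each LowAhR+AD point lies on that same side of the LowAhR mean CPM.

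All 4 stress keratins of the wound list (Krt6a, Krt6b, Krt16 and Krt17) rose, with a median log2 fold change of 5.67, against 0.0078 over all genes. Together they held 12594 to 32193 CPM in the LowAhR+AD+BJ libraries and 525 to 1734 CPM in the LowAhR libraries. In LowAhR+AD skin the sum was 11004 to 32976 CPM. Krt16, the partner of keratin 6, had 1316, 1530.4, 568 and 1333 CPM in the LowAhR+AD+BJ libraries and 10.9, 4.35, 29.9 and 36.97 CPM in the LowAhR libraries (log2 fold change 5.85, standard error 0.69, adjusted p = 3.56e-04, edgeR). Of the other 11 wound keratinocyte genes, 3 rose, among them Tnc, which encodes the wound matrix protein tenascin C and went from 4.09 ± 3.61 to 299 ± 234 CPM (SD, n = 4, log2 fold change 6.18, standard error 0.91, adjusted p = 0.00113, edgeR). Of these genes 3 to 6 were called with 1 library left out, most without LowAhR replicate 4. In Krt16 every LowAhR+AD+BJ library lay above every LowAhR library, and LowAhR+AD+BJ replicate 3 came nearest to LowAhR skin. Gjb6, a gap junction gene, had 29.7 to 80.7 CPM against 0 to 37.6 CPM and did not pass the test (adjusted p = 0.106, edgeR). Of the 10 keratins of the basal and suprabasal layers, 2 rose and 1 fell (1 to 4 were called with 1 library left out, fewest without LowAhR replicate 2 or LowAhR+AD+BJ replicate 2 or 4). Krt14, the keratin of dividing basal cells, had 3906, 4837, 2293 and 4863 CPM with DNCB and BJIKT against 742, 800.3, 992 and 1026 CPM on the diet alone (log2 fold change 2.16, standard error 0.27, adjusted p = 4.09e-04, edgeR). Krt14 separated the groups completely, and LowAhR+AD+BJ replicate 3 came nearest to LowAhR skin. Krt79, found in the upper hair follicle, rose from 518 ± 83.3 to 1008 ± 175 CPM (SD, n = 4, adjusted p = 0.0165, edgeR). Krt2, a keratin of the uppermost living layers, fell (0 to 1.63 CPM against 0.358 to 58.7 CPM with overlapping groups, adjusted p = 0.0499, edgeR). Krt10, which replaces keratin 14 as cells leave the basal layer, had 53.9, 883, 1270.0 and 1406 CPM in LowAhR+AD+BJ and 2999.8, 2930.1, 1853 and 1856 CPM in LowAhR skin. Those groups did not overlap, yet the change did not pass the test (adjusted p = 0.468, edgeR). Krt16, Tnc and Krt14 stayed called in all 12 fits that left out 1 library, whereas fits without 1 library lost the call for Krt79 (adjusted p = 0.0664 without LowAhR+AD+BJ replicate 4) and Krt2 (adjusted p = 0.3402 without LowAhR replicate 2), each at its highest p from edgeR.

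The cornified envelope is the protein shell of dead keratinocytes. Of 12 small proline-rich (SPRR) genes, which crosslink the envelope of stressed epidermis, 8 rose and none (0) fell, with a median log2 fold change of 3.96 (3 to 10 were called with 1 library left out, fewest without LowAhR replicate 1 or 2). All 6 late cornified envelope genes of group 3 (LCE3), which appear after barrier damage, rose (median 5.33), and 4 to 6 were called with 1 library left out. Lce3b had 34.4, 79.5, 8.47 and 44.7 CPM in the LowAhR+AD+BJ libraries and 0.2703, 0, 0 and 0.716 CPM in the LowAhR libraries (log2 fold change 7.29, standard error 1.35, adjusted p = 0.00518, edgeR). Lce3b showed no overlap between the groups, and LowAhR+AD+BJ replicate 3 came nearest to LowAhR skin. Lce3e and Lce3f rose from means of 0.353 and 1.17 CPM to 51.2 and 74.8 CPM (adjusted p = 0.00894 and 0.003002, edgeR). Of 15 late cornified envelope genes of normal epidermis, 14 of them LCE1 genes and the other Lce6a, 0 were called by edgeR (0 at an unadjusted p under 0.05, 0 by DESeq2 and 1 by limma voom), with a median of -0.58. Their sum was 569 CPM in LowAhR+AD+BJ replicate 1, far below the 3585, 4003 and 3960 CPM of replicates 2, 3 and 4. It was 3758 to 6511 CPM in the LowAhR libraries. Among the 17 scaffold and crosslinking genes, 0 were called as well (median 0.07), where 6 had an unadjusted p under 0.05, DESeq2 called 2 and limma voom 1 (0 to 2 were called with 1 library left out, most without LowAhR+AD replicate 3 or LowAhR+AD+BJ replicate 1 or 3). In LowAhR+AD against LowAhR, 7 SPRR and 6 LCE3 genes rose (6.42% of all genes rose there), with medians of 3.05 and 4.65. limma voom, in place of edgeR, called 3 SPRR and 1 LCE3 gene in the LowAhR+AD+BJ group.

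Of the barrier genes that the study followed, the scaffold proteins were widely spread. Lor (loricrin, the main protein of the normal envelope) had 158, 596, 1519.9 and 1189 CPM with DNCB and BJIKT against 4017, 3649, 3320.1 and 1535 CPM on the diet alone. All 4 LowAhR+AD+BJ libraries lay below all LowAhR libraries, but the difference did not pass the test across all genes (log2 fold change -1.85, standard error 0.71, adjusted p = 0.127, edgeR). Flg2, of the S100 fused protein family of the granular layer, had 32.4, 123, 607 and 196 CPM in LowAhR+AD+BJ and 1133, 1143, 989 and 785 CPM in LowAhR skin. These groups did not overlap either (log2 fold change -2.08, standard error 0.82, adjusted p = 0.139, edgeR). Ivl (involucrin, an early scaffold of the envelope) had 167, 375, 288 and 367 CPM in the LowAhR+AD+BJ libraries and 382, 251, 260.4 and 251 CPM in the LowAhR libraries. The groups overlapped and the adjusted p was 0.9502 (edgeR). Flg2 was called in LowAhR+AD against LowAhR (adjusted p = 0.0426, edgeR), at 14.9, 74.7, 492 and 47.3 CPM. Its difference between LowAhR+AD+BJ and LowAhR+AD was 0.61 on the log2 scale with a 95% interval of -1.05 to 2.27. Krtdap and Tchh, abundant members of the envelope list that were not called, had 2725 to 3438 and 2666 to 7802 CPM against 2545 to 6294 and 51.2 to 3567 CPM. Tchh was also listed among the inner root sheath genes of the hair follicle.

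**Figure D2:**
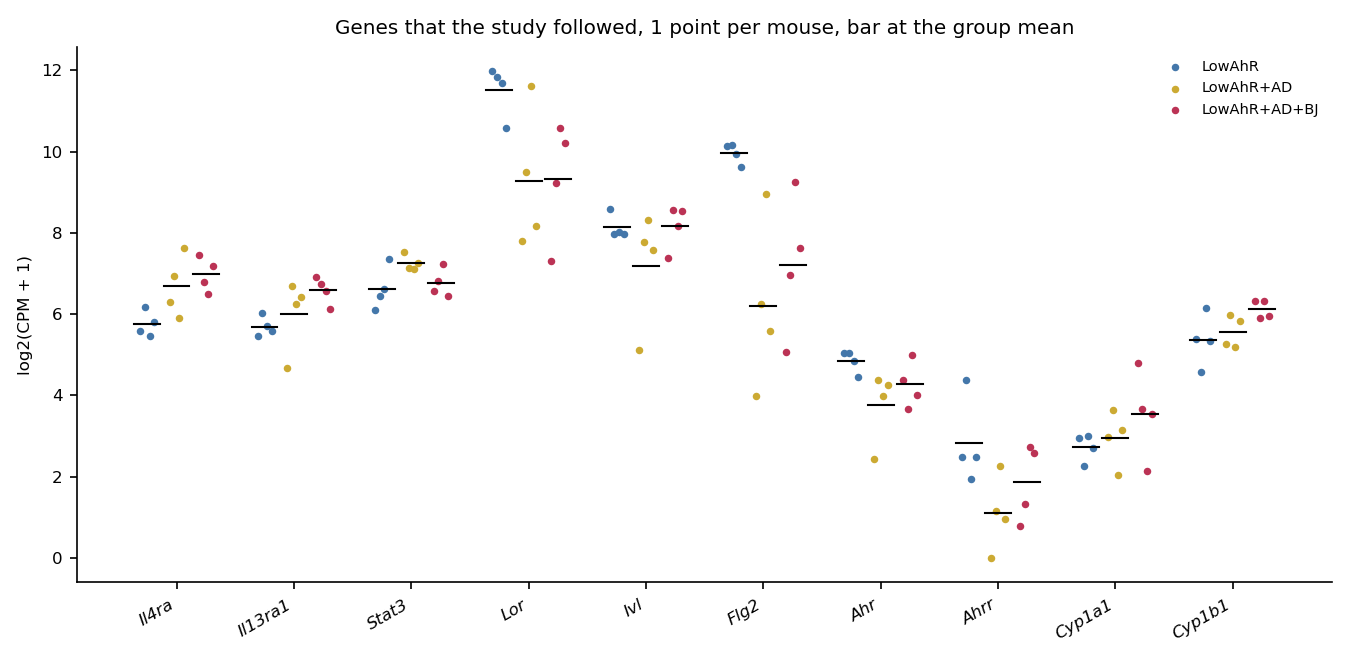
Level, as log2(CPM + 1) on the y axis, of the 10 genes that the study followed in these libraries, 1 point per mouse of the 3 groups on the low ligand diet (n = 4 each), with a bar at the mean of these log values. Il4ra is the only 1 of the 10 that was called in LowAhR+AD+BJ against LowAhR, and the groups do not overlap in Il4ra, Il13ra1, Lor and Flg2. Il13ra1, Lor and Flg2 were not called, and the share of all tested genes without overlap is not given.

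Of 13 S100 genes, which encode calcium-binding proteins, 5 rose and 0 fell (median 0.86), and 3 to 6 were called with 1 library left out, fewest without LowAhR replicate 2 or 3 or LowAhR+AD+BJ replicate 2 or 4. S100a9 and S100a8 form calprotectin, which binds metal ions and is made by neutrophils and stressed keratinocytes. S100a9 had 1312, 1452, 393 and 732 CPM with DNCB and BJIKT against 42.3, 20.6, 21.3 and 15.3 CPM on the diet alone (log2 fold change 5.29, standard error 0.71, adjusted p = 6.47e-04, edgeR). S100a8 had 1068, 1390.5, 529 and 722 CPM in LowAhR+AD+BJ and 31.8, 31.5, 18.3 and 40.7 CPM in LowAhR skin (log2 fold change 4.92, standard error 0.71, adjusted p = 0.00107, edgeR). In S100a9 and S100a8 every LowAhR+AD+BJ library lay above every LowAhR library, and LowAhR+AD+BJ replicate 3 came nearest to LowAhR skin. S100a16 rose from 327 ± 46.2 to 837 ± 212 CPM (SD, n = 4, adjusted p = 0.00438, edgeR), while the abundant S100a11 and S100a4 were not called (adjusted p = 0.156 and 0.237, edgeR). S100a8, an abundant gene with a large rise, is shown with its promoter. The 250 bases before the RefSeq transcript start (chr3:90668821-90669070, plus strand, GRCm38.p6) hold a TATA box (TATAAA, in capitals) 30 bases before the start, a motif found in 12.4% of all 32851 such windows of the table on either strand.
S100a8: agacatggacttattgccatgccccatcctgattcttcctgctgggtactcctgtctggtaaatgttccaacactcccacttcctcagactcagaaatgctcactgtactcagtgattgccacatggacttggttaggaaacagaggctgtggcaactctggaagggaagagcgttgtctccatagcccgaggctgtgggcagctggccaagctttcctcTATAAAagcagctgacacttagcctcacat
The window held no AP-1 motif (TGANTCA, either strand, in 6.75% of all windows).

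Of 21 antimicrobial and acute phase genes, 5 rose and 0 fell (median 1.25), the Saa genes included, and 5 to 8 were called with 1 library left out, most without LowAhR+AD replicate 1. Defb6, a beta-defensin that was abundant in both groups, had 846 to 1471 CPM against 847 to 1659.9 CPM and was not called (adjusted p = 0.816, edgeR). Of 16 protease inhibitors, 9 rose and 0 fell (median 2.08, or 1.502 with 1 gene near 0 at its limit), and 4 to 10 were called with 1 library left out, fewest without LowAhR replicate 1 or LowAhR+AD+BJ replicate 2 or 4. BC100530 and Stfa1 belong to the stefin A cluster of cathepsin inhibitors, whose members are near copies, so that reads could move between them. BC100530 had 2669.7, 4206, 1644 and 3668 CPM in the LowAhR+AD+BJ libraries and 35.8, 41.95, 80.9 and 12.2 CPM in the LowAhR libraries (log2 fold change 6.16, standard error 0.77, adjusted p = 4.09e-04, edgeR). Stfa1 had a log2 fold change of 5.85, from 7.66 ± 3.57 to 442 ± 125 CPM (SD, n = 4, adjusted p = 3.56e-04, edgeR). Slpi, an inhibitor of neutrophil elastase, had 295, 140.0, 30.4 and 128 CPM with DNCB and BJIKT against 5.81, 1.92, 2.47 and 7.04 CPM on the diet alone (log2 fold change 5.10, standard error 0.66, adjusted p = 5.03e-04, edgeR). BC100530 and Slpi separated the groups completely, and LowAhR+AD+BJ replicate 3 came nearest to LowAhR skin. Spink5, whose product LEKTI restrains the kallikreins that shed the skin surface, had 1687 to 2667 CPM against 1532 to 1611 CPM and was not called (adjusted p = 0.487, edgeR). Of 10 kallikreins, 3 rose and 0 fell (median 1.62), and 2 to 4 were called with 1 library left out. S100a9, S100a8, S100a16, BC100530, Stfa1 and Slpi stayed called in all 12 fits that left out 1 library.

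Of 11 CXC chemokines, many of which draw neutrophils, 4 rose and 0 fell (median 0.98), and 2 to 5 were called with 1 library left out, fewest without LowAhR replicate 1 or 2 or LowAhR+AD+BJ replicate 1, 2 or 4. Besides Cxcl5, Cxcl2 had 61.1, 38.97, 0.622 and 18.4 CPM in LowAhR+AD+BJ and 1.35, 0, 0.2600 and 0.596 CPM in LowAhR skin (log2 fold change 5.73, standard error 1.17, adjusted p = 0.00839, edgeR). All but 1 of its LowAhR+AD+BJ libraries lay above all LowAhR libraries. Cxcl1 rose (3.19 to 42.96 CPM against 0.406 to 1.79 CPM, adjusted p = 0.0467, edgeR). Of 18 CC chemokines, 1 rose and 1 fell (1 to 3 were called with 1 library left out, fewest without LowAhR replicate 1 or 2 or LowAhR+AD+BJ replicate 1, 2 or 4). Ccl7, which attracts monocytes, rose from 4.94 ± 3.07 to 50.8 ± 47.4 CPM (SD, n = 4, log2 fold change 3.36, standard error 0.63, adjusted p = 0.00542, edgeR). Ccl27a, the chemokine by which keratinocytes draw skin-homing T cells, had 366, 567, 926 and 593 CPM in the LowAhR+AD+BJ libraries and 1894, 2137, 1636 and 753 CPM in the LowAhR libraries (log2 fold change -1.39, standard error 0.34, adjusted p = 0.0188, edgeR). All but 1 of the LowAhR+AD+BJ libraries, replicate 3, lay below all LowAhR libraries in Ccl27a. Ccl8 and Ccl6 were not called (adjusted p = 0.913 and 0.795, edgeR).

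Of 15 genes of the IL-1 family and its receptors, 1 rose and 1 fell (1 or 2 were called with 1 library left out, fewest without LowAhR replicate 1, 2 or 3 or LowAhR+AD+BJ replicate 1, 2 or 4). Il1b, the inflammasome cytokine, had 167, 124, 14.9 and 51.9 CPM with DNCB and BJIKT against 5.27, 6.65, 20.9 and 5.605 CPM on the diet alone (log2 fold change 3.22, standard error 0.63, adjusted p = 0.00672, edgeR). Il1r2, a decoy receptor that binds IL-1β, had 39.4, 22.7, 108 and 55.5 CPM in LowAhR+AD+BJ and 192, 244, 158 and 116 CPM in LowAhR skin (log2 fold change -1.65, standard error 0.45, adjusted p = 0.0341, edgeR). Il1r2 showed no overlap between the groups, and LowAhR+AD+BJ replicate 3 came nearest to LowAhR skin. In Il1b LowAhR+AD+BJ replicate 3 lay below LowAhR replicate 3, and the groups overlapped nowhere else. In the IL-20 family Il24 rose, while the receptor chains Il22ra1 and Il20rb fell from means of 27.9 and 146 to 11.2 and 67.4 CPM (adjusted p = 0.0429 and 0.0308, edgeR). Of the 5 genes of that family 1 to 4 were called with 1 library left out, fewest without LowAhR replicate 1, 2 or 3 or LowAhR+AD+BJ replicate 1, 2 or 4. Of 9 ligands of the EGF receptor, which drive keratinocyte growth, 4 rose and 0 fell, and 1 to 5 were called with 1 library left out, fewest without LowAhR replicate 1 or 3 or LowAhR+AD+BJ replicate 1 or 2. Epgn (epigen) had 389, 250.4, 52.8 and 185 CPM in the LowAhR+AD+BJ libraries and 7.98, 1.28, 17.7 and 3.34 CPM in the LowAhR libraries (log2 fold change 4.86, standard error 0.82, adjusted p = 0.00295, edgeR). In Epgn every LowAhR+AD+BJ library lay above every LowAhR library, and LowAhR+AD+BJ replicate 3 came nearest to LowAhR skin. Hbegf and Areg rose from means of 9.53 and 3.77 to 38.1 and 14.98 CPM (adjusted p = 0.0312 and 0.0379, edgeR), and Ereg, at 10.03 to 28.7 against 17.3 to 72.99 CPM, was not called (adjusted p = 0.0846, edgeR). Among 19 AP-1 and immediate early genes, 1 rose, where 3.64% of all tested genes rose: Ier3, from 132 ± 18.3 to 239 ± 31.2 CPM (SD, n = 4, adjusted p = 0.0297, edgeR). From that list 0 to 4 were called with 1 library left out, fewest without LowAhR replicate 1, 2 or 3 or LowAhR+AD+BJ replicate 1 or 4, and most without LowAhR+AD replicate 1. Fosl2 and Junb, subunits of the AP-1 factor, were not called (adjusted p = 0.191 and 0.221, edgeR). Cxcl2, Ccl7, Il1b and Epgn stayed called in all 12 fits that left out 1 library, whereas the call was lost in some of them for Cxcl1 and Areg (adjusted p = 0.205 and 0.172 without LowAhR+AD+BJ replicate 1), Ccl27a and Hbegf (adjusted p = 0.0671 and 0.0943 without LowAhR replicate 2), Il1r2 and Ier3 (adjusted p = 0.116 and 0.102 without LowAhR+AD+BJ replicate 2), Il22ra1 (adjusted p = 0.141 without LowAhR replicate 1) and Il20rb (adjusted p = 0.1004 without LowAhR+AD+BJ replicate 4), edgeR's highest value in each case.

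Among marker genes of immune cells, the share called differed between the lists. Of 16 neutrophil genes, 4 rose and 1 fell (median 3.41, or 3.10 with 1 gene near 0 at its limit), with summed levels of 1068 to 2989.6 CPM against 202 to 347 CPM, and 2 to 9 were called with 1 library left out, fewest without LowAhR replicate 1 or LowAhR+AD+BJ replicate 1, and most without LowAhR+AD replicate 1. Most of that sum came from S100a8 and S100a9 in LowAhR+AD+BJ skin, which stressed keratinocytes also make, and from Il1r2 in LowAhR skin. The sum is therefore no measure of neutrophils alone. The rises were S100a8, S100a9, Clec4d and Hdc, the last of which is also in the mast cell list below. Clec4d had 3.34 to 67.2 CPM against 0.358 to 2.81 CPM (adjusted p = 0.0239, edgeR). Of the defining markers, Ly6g was not analysed here, Csf3r had too few counts to be tested, Cxcr2 had 4.66 to 12.8 CPM against 0.128 to 1.91 CPM (adjusted p = 0.05595, edgeR), and Retnlg had 2.798 to 19.1 CPM against 2.86 to 13.6 CPM (adjusted p = 0.918, edgeR). Of 19 T cell genes 0 were called (median -0.71), and Foxp3, the factor of regulatory T cells, had 6.202 to 12.8 CPM against 4.87 to 14.6 CPM. None of the 22 macrophage and monocyte genes was called (0 called, median -0.05), with C1qa at 353 ± 101 and 333 ± 20.7 CPM (SD, n = 4). Of the 38 interferon-stimulated genes 0 were called (median -0.16), and of the 6 B cell and plasma cell genes 0. In these 4 lists, 0 T cell, 1 macrophage, 2 interferon-stimulated and 0 B cell genes had an unadjusted p under 0.05 in edgeR, and DESeq2 and limma voom called 0 in each. Without LowAhR+AD replicate 1, 1 interferon-stimulated gene was called.

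Of 11 MHC class II genes, which present antigen to helper T cells, 0 rose and 2 fell (median -1.04), and 0 to 4 were called with 1 library left out, fewest without LowAhR replicate 2 or 3 or LowAhR+AD+BJ replicate 1, 2 or 4, and most without LowAhR+AD+BJ replicate 3. Cd74, the invariant chain that escorts class II molecules, had 239, 214, 877 and 295 CPM with DNCB and BJIKT against 1047, 1076, 1266 and 973 CPM on the diet alone (log2 fold change -1.42, standard error 0.41, adjusted p = 0.0428, edgeR). Cd74 separated the groups completely, and LowAhR+AD+BJ replicate 3 came nearest to LowAhR skin. H2-DMa, which loads peptides onto them, fell from 88.4 ± 19.9 to 31.98 ± 19.7 CPM (SD, n = 4, adjusted p = 0.0233, edgeR). H2-Ab1, at 120.4 to 589 against 614 to 842 CPM, was not called (adjusted p = 0.05999, edgeR). Of 14 dendritic and Langerhans cell genes 1 rose, Fscn1 (fascin, an actin bundler of mature dendritic cells that other cells also make), with 88.3, 61.05, 52.2 and 74.8 CPM in LowAhR+AD+BJ and 18.4, 8.95, 19.4 and 30.9 CPM in LowAhR skin (log2 fold change 1.83, standard error 0.34, adjusted p = 0.00519, edgeR), and 1 or 2 were called with 1 library left out, most without LowAhR replicate 1, LowAhR+AD replicate 1 or 3 or LowAhR+AD+BJ replicate 3. Cd207 (langerin), the defining marker of Langerhans cells, had 0, 0, 8.71 and 0 CPM in the LowAhR+AD+BJ libraries and 11.2, 13.05, 12.2 and 7.04 CPM in the LowAhR libraries. It had no count in any LowAhR+AD+BJ library but replicate 3 and was not called (adjusted p = 0.3097, edgeR). Of 16 mast cell genes 2 rose, among them Hdc, the enzyme that makes histamine, with 8.24 to 61.7 CPM against 4.29 to 19.3 CPM (adjusted p = 0.0465, edgeR). Hdc was also counted in the neutrophil list, so its rise is not particular to mast cells. The mast cell proteases Mcpt4 and Cpa3 were not called (adjusted p = 0.346 and 0.235, edgeR). Among the mast cell genes 0 to 3 were called with 1 library left out, fewest without LowAhR replicate 1 or 3 or LowAhR+AD+BJ replicate 1 or 2. Of 19 complement genes 2 fell, Cd59a, which protects cells from lysis, from 199 ± 30.4 to 78.04 ± 12.3 CPM (SD, n = 4, adjusted p = 0.00156, edgeR), and Cfd (adipsin), a product of fat cells, from 2452 ± 197 to 805 ± 122 CPM (SD, n = 4, adjusted p = 0.0424, edgeR). In the complement list 1 or 2 were called with 1 library left out, fewest without LowAhR replicate 1, 2 or 3, LowAhR+AD replicate 2 or LowAhR+AD+BJ replicate 1, 2, 3 or 4.

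Of 23 genes of type 2 immunity, 2 rose (Il4ra and Chil3) and 1 fell (Gata3), and 1 to 7 were called with 1 library left out, fewest without LowAhR replicate 1 or 3 or LowAhR+AD+BJ replicate 1, 2 or 4, and most without LowAhR+AD replicate 1. Il4ra had 173, 109, 89.4 and 145 CPM in the LowAhR+AD+BJ libraries and 46.8, 71.6, 43.2 and 54.7 CPM in the LowAhR libraries (log2 fold change 1.25, standard error 0.33, adjusted p = 0.0287, edgeR). All 4 LowAhR+AD+BJ libraries lay above all LowAhR libraries. Il13ra1, the second chain of the IL-13 receptor, had 121, 106, 93.2 and 69.2 CPM with DNCB and BJIKT against 43.1, 63.8, 51.4 and 46.9 CPM on the diet alone. Those groups did not overlap, but the adjusted p was 0.08997 (edgeR). Stat3, a transcription factor downstream of many cytokines, had 94.4, 111, 149 and 85.7 CPM in LowAhR+AD+BJ and 67.2, 85.7, 96.6 and 164 CPM in LowAhR skin and overlapping groups (adjusted p = 0.882, edgeR). Gata3, a factor of type 2 lymphocytes that keratinocytes and the hair follicle also express, had 83.9, 106, 164 and 126 CPM in the LowAhR+AD+BJ libraries and 323, 325, 212 and 166 CPM in the LowAhR libraries (log2 fold change -1.10, standard error 0.32, adjusted p = 0.0461, edgeR). Gata3 showed no overlap between the groups, and LowAhR+AD+BJ replicate 3 came nearest to LowAhR skin. Retnla, another product of alternatively activated macrophages, had 105, 153, 994 and 162 CPM with DNCB and BJIKT against 1194, 1309, 824 and 2121 CPM on the diet alone and was not called (adjusted p = 0.114, edgeR). In Retnla the groups overlapped through LowAhR+AD+BJ replicate 3. Its LowAhR+AD libraries had 8.01, 122, 66.6 and 106 CPM, and its difference between LowAhR+AD+BJ and LowAhR+AD was 2.23 on the log2 scale (95% interval 0.70 to 3.75, unadjusted p = 0.00676 and adjusted p = 0.498, edgeR). Of the genes for Il4 and Il13 themselves, neither had enough counts to be tested. Fscn1 and Cd59a stayed called in all 12 fits that left out 1 library, whereas fits without 1 library lost the call for Clec4d and Hdc (adjusted p = 0.158 and 0.155 without LowAhR+AD+BJ replicate 1), Cd74, H2-DMa and Gata3 (adjusted p = 0.151, 0.0863 and 0.1404 without LowAhR+AD+BJ replicate 2), Cfd (adjusted p = 0.126 without LowAhR+AD+BJ replicate 4) and Il4ra (adjusted p = 0.0927 without LowAhR replicate 3), each at its highest p from edgeR.

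Of 45 genes of the cell cycle and mitosis, 15 rose and 0 fell, 44 had a fitted change above 0, and the median was 1.17 on the log2 scale (6 to 19 were called with 1 library left out, fewest without LowAhR replicate 1 or LowAhR+AD+BJ replicate 2). Cdk1, the kinase that starts mitosis, had 88.6, 115, 43.1 and 89.00 CPM in LowAhR+AD+BJ and 27.03, 26.2, 16.5 and 25.4 CPM in LowAhR skin (log2 fold change 1.82, standard error 0.36, adjusted p = 0.00757, edgeR). Cdk1 separated the groups completely, and LowAhR+AD+BJ replicate 3 came nearest to LowAhR skin. Rrm2, which supplies nucleotides for DNA synthesis, and Mcm5, part of the replicative helicase, rose from means of 6.005 and 6.32 to 23.3 and 23.7 CPM without overlap (adjusted p = 0.0124 and 0.00594, edgeR). Ccna2 and Ccnd1 were abundant and not called (adjusted p = 0.0563 and 0.518, edgeR). In LowAhR+AD against LowAhR, 16 of the 45 rose with a median of 1.11 (6.42% of all genes rose there). Of 27 genes of glycolysis and the response to low oxygen, 2 rose and 2 fell (0 to 5 were called with 1 library left out, fewest without LowAhR+AD+BJ replicate 2). Hif1a, the oxygen-sensing factor, and Slc2a1, a glucose transporter, rose from means of 50.2 and 34.6 to 117 and 71.2 CPM (adjusted p = 0.0163 and 0.0429, edgeR). Pfkm, the muscle form of phosphofructokinase, and Bnip3 fell from means of 135 and 151 to 45.3 and 68.5 CPM (adjusted p = 0.0291 and 0.0477, edgeR). Cdk1, Rrm2 and Mcm5 stayed called in all 12 fits that left out 1 library, whereas the call was lost in some of them for Hif1a, Pfkm and Bnip3 (adjusted p = 0.0659, 0.105 and 0.161 without LowAhR+AD+BJ replicate 2) and Slc2a1 (adjusted p = 0.132 without LowAhR+AD+BJ replicate 4), edgeR's highest value in each case.

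Col12a1, a collagen that coats fibrils and is laid down in wounds, had 38.5, 55.6, 10.6 and 44.1 CPM in the LowAhR+AD+BJ libraries and 3.11, 4.35, 2.47 and 3.46 CPM in the LowAhR libraries (log2 fold change 3.47, standard error 0.43, adjusted p = 4.09e-04, edgeR). Col1a1, the main collagen of the dermis, had 2549, 1783, 4569 and 2233 CPM with DNCB and BJIKT against 6043, 13449, 6350.2 and 4687 CPM on the diet alone (log2 fold change -1.46, standard error 0.42, adjusted p = 0.0437, edgeR). Neither Col12a1 nor Col1a1 overlapped between the groups, and LowAhR+AD+BJ replicate 3 came nearest to LowAhR skin in both. Sparc, a protein that binds collagen, fell from 17559.8 ± 8630.0 to 4517 ± 1369 CPM (SD, n = 4, adjusted p = 0.0231, edgeR), and Col17a1, the collagen that anchors basal keratinocytes, fell from 186 ± 41.6 to 88.4 ± 15.7 CPM (SD, n = 4, adjusted p = 0.0106, edgeR). Dcn (decorin) and Col1a2 had no overlap between the groups but were not called (adjusted p = 0.296 and 0.0777, edgeR). Over all 37 collagen and matrix genes, 2 rose and 4 fell (median -0.34), and 3 to 11 were called with 1 library left out, fewest without LowAhR replicate 2 or 3 or LowAhR+AD+BJ replicate 1, 2 or 4, and most without LowAhR+AD replicate 1. Of 4 metalloproteinase inhibitors, Timp1 rose and Timp4 fell, and 1 to 3 were called with 1 library left out, fewest without LowAhR+AD+BJ replicate 1 or 2. Timp1 had 92.1, 38.3, 27.9 and 39.7 CPM in LowAhR+AD+BJ and 4.596, 0.6395, 7.800 and 8.47 CPM in LowAhR skin (log2 fold change 3.20, standard error 0.71, adjusted p = 0.0118, edgeR). Timp4 had 3.92, 5.901, 3.498 and 12.8 CPM in the LowAhR+AD+BJ libraries and 52.99, 29.8, 39.8 and 38.4 CPM in the LowAhR libraries (log2 fold change -2.63, standard error 0.62, adjusted p = 0.0164, edgeR). No library of 1 group lay among those of the other in Timp1 and Timp4, and the nearest LowAhR+AD+BJ library was replicate 3 in Timp1 and replicate 4 in Timp4.

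Of 15 matrix metalloproteinases, only Mmp13, a collagenase of wounds, was called at edgeR's threshold, and 0 to 4 were called with 1 library left out, fewest without LowAhR replicate 1 or 2 or LowAhR+AD+BJ replicate 1, 2 or 4, and most without LowAhR+AD replicate 1. Mmp13 had 91.7, 45.8, 0.622 and 58.7 CPM with DNCB and BJIKT against 0, 0.6395, 5.07 and 2.74 CPM on the diet alone (log2 fold change 4.53, standard error 1.19, adjusted p = 0.0294, edgeR), and 3 of the 4 LowAhR+AD+BJ libraries lay above all LowAhR libraries. Mmp14 and Timp2, both abundant, were not called (adjusted p = 0.375 and 0.1403, edgeR). The start of Mmp13 is shown because it was the only 1 of the 38 named rises with a window in the table that held an AP-1 motif in the 250 bases before its transcript start. In chr9:7272264-7272513 (plus strand, GRCm38.p6, RefSeq) capitals mark the AP-1 motif TGANTCA, 35 bases before the start, and the TATA box TATAAA, 16 bases before it.
Mmp13: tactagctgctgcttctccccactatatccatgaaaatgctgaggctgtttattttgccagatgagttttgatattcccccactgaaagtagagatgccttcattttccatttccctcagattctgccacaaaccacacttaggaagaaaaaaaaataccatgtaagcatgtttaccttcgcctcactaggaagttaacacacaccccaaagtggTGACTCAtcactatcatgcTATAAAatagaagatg
The AP-1 motif was found in 8.18% of the windows of the genes called higher, in 5.01% of those called lower and in 5.16% of those of all tested genes. A match is a string of letters and does not show that a factor bound there. Col12a1, Col17a1 and Timp1 stayed called in all 12 fits that left out 1 library, whereas fits without 1 library lost the call for Col1a1 and Mmp13 (adjusted p = 0.179 and 0.0862 without LowAhR replicate 2) and Sparc and Timp4 (adjusted p = 0.0912 and 0.0615 without LowAhR+AD+BJ replicate 2), each at its highest p from edgeR.

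Of 23 genes that make the lipids of the barrier, 5 rose and 0 fell (median 0.48), and 2 to 8 were called with 1 library left out, fewest without LowAhR+AD+BJ replicate 2, and most without LowAhR+AD replicate 1 or LowAhR+AD+BJ replicate 3. Degs2, which makes phytoceramides, had 94.1, 84.4, 28.5 and 54.4 CPM in LowAhR+AD+BJ and 7.84, 10.1, 11.8 and 12.04 CPM in LowAhR skin (log2 fold change 2.64, standard error 0.34, adjusted p = 5.03e-04, edgeR). Degs2 separated the groups completely, and LowAhR+AD+BJ replicate 3 came nearest to LowAhR skin. Sptlc1, of the first step of sphingolipid synthesis, and the ceramide synthase Cers3 rose from means of 123 and 35.5 to 300.0 and 79.5 CPM (adjusted p = 0.0124 and 0.0333, edgeR). Elovl4 and Cers4 were not called (adjusted p = 0.0776 and 0.8898, edgeR). Of 23 genes of cholesterol synthesis, 3 rose and 0 fell, all 23 had a fitted change above 0, and the median was 0.63 (1 to 7 were called with 1 library left out, fewest without LowAhR+AD+BJ replicate 2, and most without LowAhR+AD replicate 1). Sqle and Fdft1, enzymes of the squalene steps, rose from means of 42.2 and 70.3 to 81.5 and 119 CPM (adjusted p = 0.0125 and 0.0279, edgeR). In LowAhR+AD against LowAhR, 6 of the 23 rose with a median of 0.55 (6.42% of all genes rose there).

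Of 20 genes of the sebaceous gland, 3 rose and 2 fell (3 to 9 were called with 1 library left out, fewest without LowAhR replicate 1 or LowAhR+AD+BJ replicate 4, and most without LowAhR+AD replicate 1). Fabp5, a fatty acid carrier of keratinocytes and sebocytes, had 3250.3, 3743, 1730.2 and 3465 CPM in the LowAhR+AD+BJ libraries and 574, 579, 611 and 729 CPM in the LowAhR libraries (log2 fold change 2.29, standard error 0.34, adjusted p = 0.00113, edgeR). Scd1, a desaturase of sebaceous lipids, had 984, 824, 817 and 949 CPM with DNCB and BJIKT against 3868, 4728, 3668 and 1995 CPM on the diet alone (log2 fold change -1.996, standard error 0.28, adjusted p = 9.13e-04, edgeR). No library of 1 group lay among those of the other in Fabp5 and Scd1, and the nearest LowAhR+AD+BJ library was replicate 3 in Fabp5 and replicate 1 in Scd1. Cyp2g1 and Elovl3 were the other rises, from means of 2.495 and 166 to 47.1 and 437 CPM (adjusted p = 0.0146 and 0.0413, edgeR). Scd3, a related desaturase, fell and is among the largest falls. Mgst1, a defining marker of the list, had 229 to 493 CPM against 257 to 340.2 CPM and was not called (adjusted p = 0.809, edgeR). Degs2, Fabp5 and Scd1 stayed called in all 12 fits that left out 1 library, whereas the call was lost in some of them for Sptlc1, Cers3, Sqle and Fdft1 (adjusted p = 0.0507, 0.143, 0.0598 and 0.107 without LowAhR+AD+BJ replicate 2), Cyp2g1 (adjusted p = 0.0541 without LowAhR+AD+BJ replicate 4) and Elovl3 (adjusted p = 0.137 without LowAhR+AD+BJ replicate 1), edgeR's highest value in each case.

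The largest falls by the same criteria, 7 of which are described, included genes of fat and muscle. Rbp4, the retinol carrier, had 8.12, 4.48, 8.08 and 3.43 CPM in LowAhR+AD+BJ and 124, 58.96, 87.4 and 45.3 CPM in LowAhR skin (log2 fold change -3.70, standard error 0.74, adjusted p = 0.00715, edgeR). Retn (resistin, a hormone of mouse fat cells) had 34.4, 34.6, 22.2 and 61.4 CPM in the LowAhR+AD+BJ libraries and 556, 423, 263 and 141 CPM in the LowAhR libraries (log2 fold change -3.18, standard error 0.46, adjusted p = 1.00e-03, edgeR). Car3, a carbonic anhydrase of fat and muscle, had 157, 60.4, 243 and 44.7 CPM with DNCB and BJIKT against 894, 745, 1015 and 1331 CPM on the diet alone (log2 fold change -2.98, standard error 0.56, adjusted p = 0.00547, edgeR). In these 3 genes every LowAhR+AD+BJ library lay below every LowAhR library. Myh8, the perinatal myosin heavy chain, had 3.65, 2.65, 9.72 and 2.62 CPM in LowAhR+AD+BJ and 18.1, 18.4, 59.3 and 67.4 CPM in LowAhR skin (log2 fold change -3.12, standard error 0.52, adjusted p = 0.00244, edgeR). Scd3 had 17.97, 25.8, 72.99 and 64.00 CPM in the LowAhR+AD+BJ libraries and 293, 416, 309 and 298 CPM in the LowAhR libraries (log2 fold change -2.86, standard error 0.44, adjusted p = 0.00143, edgeR). These groups lay apart as well, with LowAhR+AD below both, at means of 1.59 CPM for Myh8 and 14.5 CPM for Scd3.

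Slc24a3 and Kazald1 were less abundant. Slc24a3, which exchanges sodium for calcium and potassium, had 1.003, 4.48, 4.198 and 4.13 CPM with DNCB and BJIKT against 23.1, 34.8, 33.4 and 15.3 CPM on the diet alone (log2 fold change -2.94, standard error 0.60, adjusted p = 0.00795, edgeR). Kazald1, a secreted protein with a Kazal domain, had 3.92, 3.05, 5.05 and 3.02 CPM in LowAhR+AD+BJ and 24.9, 43.2, 25.1 and 10.6 CPM in LowAhR skin (log2 fold change -2.78, standard error 0.41, adjusted p = 0.00113, edgeR). In Slc24a3 and Kazald1 every LowAhR+AD+BJ library lay below every LowAhR library. All 7 falls described here stayed called in each of the 12 fits that left out 1 library.

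Of 17 adipocyte genes, 0 rose and 12 fell, with a median log2 fold change of -1.61 and a fitted change below 0 in all 17. The summed level of the list was 3276 to 4727 CPM in the LowAhR+AD+BJ libraries, 10932 to 15291 CPM in the LowAhR libraries and 834 to 4885 CPM in the LowAhR+AD libraries, and 7 to 14 were called with 1 library left out, fewest without LowAhR+AD+BJ replicate 4. Adipoq (adiponectin, a hormone of fat cells) had 147, 108, 216 and 83.2 CPM in the LowAhR+AD+BJ libraries and 619.9, 571, 1119 and 990.2 CPM in the LowAhR libraries (log2 fold change -2.57, standard error 0.51, adjusted p = 0.00693, edgeR). Adipoq separated the groups completely, and LowAhR+AD+BJ replicate 3 came nearest to LowAhR skin. Fabp4, the fatty acid carrier of fat cells, did not overlap between the groups but was not called, at 1954 ± 499 and 4591 ± 1962 CPM (SD, n = 4, adjusted p = 0.198, edgeR). None of the defining markers Adipoq, Plin1, Fabp4 and Cidec was at 0 in any library. The part of a lower share of fat in the other results was not tested.

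Of 23 skeletal muscle genes, 0 rose and 4 fell, with a median of -1.56 and a fitted change below 0 in all 23. Their sum was 5431 to 17539 CPM in the LowAhR+AD+BJ libraries and 18351 to 38116 CPM in the LowAhR libraries. In the LowAhR+AD libraries it was 738 to 6511 CPM, and 22 of the 23 fell against LowAhR (6.21% of all genes fell there), with a median of -2.79. The count of calls in LowAhR+AD+BJ depended on single libraries, since 1 to 16 were called with 1 library left out, fewest without LowAhR replicate 2 or LowAhR+AD+BJ replicate 1 or 2, and most without LowAhR+AD+BJ replicate 3. Tnnc2, the calcium sensor of fast fibres, had 1036, 669, 1855 and 677 CPM with DNCB and BJIKT against 2762, 2750.3, 3857 and 4271 CPM on the diet alone (log2 fold change -1.69, standard error 0.48, adjusted p = 0.0411, edgeR). Tnnc2 showed no overlap between the groups, and LowAhR+AD+BJ replicate 3 came nearest to LowAhR skin. Its LowAhR+AD libraries had 447, 396, 76.04 and 664 CPM, and the log2 difference of LowAhR+AD+BJ from LowAhR+AD was 1.42 (95% interval 0.42 to 2.42, unadjusted p = 0.00786, adjusted p = 0.498, edgeR). Pgam2 and Myh1, a glycolytic enzyme and a fast myosin of muscle, fell from means of 224 and 564 to 40.9 and 103 CPM (adjusted p = 0.00581 and 0.0177, edgeR). Acta1, the actin of skeletal muscle and the first of the defining markers, had 509.6 to 2194 CPM against 1989 to 5063 CPM and was not called (adjusted p = 0.127, edgeR). None of Acta1, Ckm, Myh4 and Mylpf was at 0 in any library, and the part of muscle in the other results was not tested.

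Of 10 genes of nerve and Schwann cells 2 fell, among them Mbp, a protein of the myelin sheath, from 64.5 ± 25.5 to 14.9 ± 6.75 CPM (SD, n = 4, adjusted p = 0.00894, edgeR), and 1 to 4 were called with 1 library left out, fewest without LowAhR+AD+BJ replicate 2 or 4, and most without LowAhR+AD+BJ replicate 3. Of 20 endothelial and pericyte genes 1 fell, where 3.12% of all tested genes fell. It was Cldn5, a tight junction protein of vessels, with 5.56, 4.58, 3.89 and 2.72 CPM in LowAhR+AD+BJ and 24.9, 33.6, 18.3 and 8.71 CPM in LowAhR skin (log2 fold change -2.35, standard error 0.41, adjusted p = 0.00344, edgeR). Pecam1, which defines endothelium, had 41.2 to 71.96 CPM against 31.5 to 92.8 CPM and was not called (adjusted p = 0.857, edgeR). Of the vessel genes 1 or 2 were called with 1 library left out, most without LowAhR+AD replicate 1 or LowAhR+AD+BJ replicate 3. Of 12 itch and sensory genes, 9 melanocyte genes and 9 erythroid genes 0 were called, with F2rl1, the receptor PAR2 that tryptic proteases activate, at 18.5 to 27.6 against 8.92 to 17.3 CPM (adjusted p = 0.198, edgeR). Of the itch genes 4 had an unadjusted p under 0.05, DESeq2 called 1 and limma voom 2, and of the melanocyte and erythroid genes 4 and 0 had such a p, with 0 called by either tool. Of all 14854 tested genes, 3291 had such a p in edgeR. For the itch genes 0 to 2 were called with 1 library left out, most without LowAhR+AD+BJ replicate 3, and for the melanocyte genes 0 or 1 were called with 1 library left out, most without LowAhR replicate 4 or LowAhR+AD+BJ replicate 3. Of the 4 nuclear and ribosomal transcripts of the RNA quality list 2 fell, Rn45s and Malat1, Malat1 from 5905 ± 386 to 2664 ± 436 CPM (SD, n = 4, adjusted p = 0.0144, edgeR), and 1 or 2 were called with 1 library left out, fewest without LowAhR+AD+BJ replicate 4. Adipoq, Pgam2, Mbp and Cldn5 stayed called in all 12 fits that left out 1 library, whereas fits without 1 library lost the call for Tnnc2 and Myh1 (adjusted p = 0.141 and 0.0732 without LowAhR+AD+BJ replicate 2) and Malat1 (adjusted p = 0.0641 without LowAhR+AD+BJ replicate 4), each at its highest p from edgeR.

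Of 58 genes of the hair follicle, 54 had a fitted change above 0 and the median was 1.53. Only 2 rose and 2 fell by edgeR, near the shares of all tested genes (3.64% and 3.12%). DESeq2 called 4 of the 58 and limma voom 15, where they called 1676 and 1005 of all 14854 tested genes. The count for this list therefore depended on the tool. Of the follicle genes 0 to 12 were called with 1 library left out, fewest without LowAhR replicate 2 or LowAhR+AD+BJ replicate 2, and most without LowAhR replicate 4. The summed level of the list was 17349 to 50693 CPM in the LowAhR+AD+BJ libraries, 2291 to 26941 CPM in the LowAhR libraries and 13836 to 62228 CPM in the LowAhR+AD libraries. These ranges overlapped, and the part of the hair cycle in the other results was not tested. Krt75, of the companion layer, rose (124 to 325 CPM against 27.2 to 171 CPM, adjusted p = 0.0307, edgeR). Sox9, a factor of follicle stem cells and the outer root sheath, had 271, 337, 361 and 428 CPM in the LowAhR+AD+BJ libraries and 88.3, 40.3, 73.6 and 220.3 CPM in the LowAhR libraries (log2 fold change 1.72, standard error 0.502, adjusted p = 0.0457, edgeR). Cd34, which marks stem cells of the mouse bulge as well as vessels and dermal cells, had 364, 382, 654 and 458 CPM with DNCB and BJIKT against 1195, 1682, 1243 and 697 CPM on the diet alone (log2 fold change -1.37, standard error 0.31, adjusted p = 0.0125, edgeR). No library of 1 group lay among those of the other in Sox9 and Cd34, and the nearest LowAhR+AD+BJ library was replicate 1 in Sox9 and replicate 3 in Cd34. Bmp4, a signal that holds follicles at rest, fell from 178 ± 14.05 to 97.4 ± 29.1 CPM (SD, n = 4, adjusted p = 0.0239, edgeR). Its LowAhR+AD mean was 154 ± 30.5 CPM, and the log2 difference of LowAhR+AD+BJ from LowAhR+AD was -0.66 (95% interval -1.12 to -0.21, unadjusted p = 0.00697, adjusted p = 0.498, edgeR). Krtap8-1, a hair shaft protein, had 3432 to 10550.2 CPM against 11.1 to 3615 CPM and was not called (adjusted p = 0.232, edgeR). In LowAhR+AD against LowAhR, 9 of the 58 rose and 1 fell, where 6.42% and 6.21% of all genes did. With 1 library left out, the call was lost in some fits for Krt75 and Sox9 (adjusted p = 0.0938 and 0.126 without LowAhR replicate 3), Cd34 (adjusted p = 0.0562 without LowAhR+AD+BJ replicate 2) and Bmp4 (adjusted p = 0.07000 without LowAhR replicate 2), edgeR's highest value in each case.

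**Figure D3:**
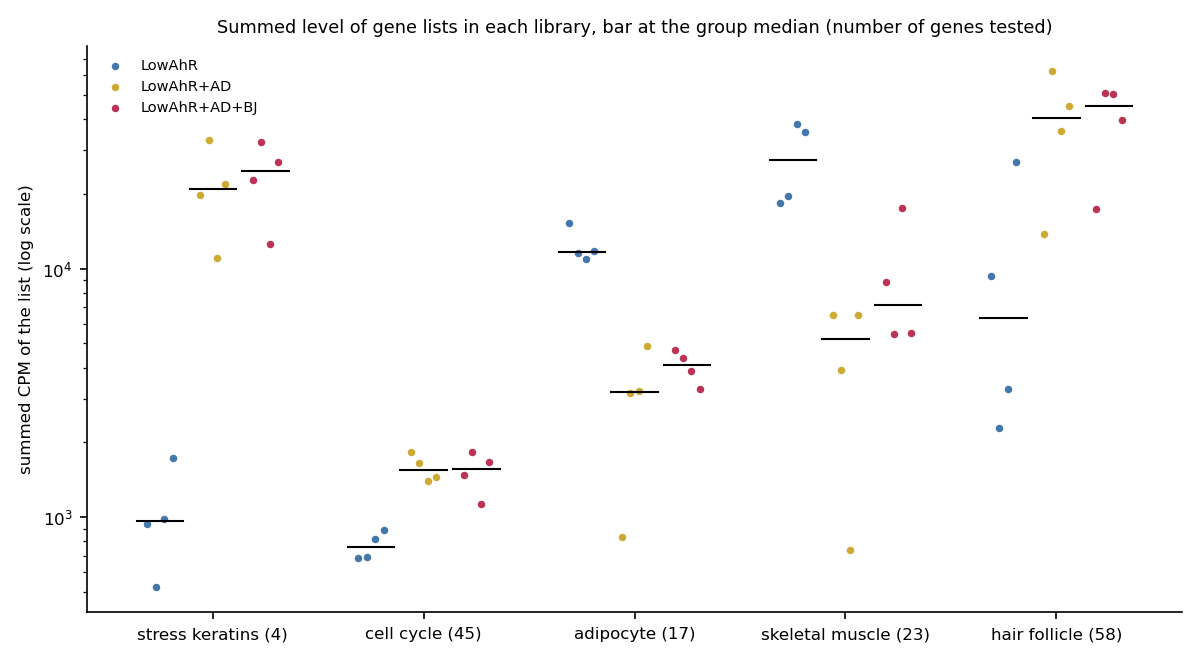
Summed CPM (y axis, log scale) of the stress keratins, the cell cycle list and the adipocyte, skeletal muscle and hair follicle lists in each library, 1 point per mouse of the 3 groups on the low ligand diet (n = 4 each), with a bar at the group median. Between LowAhR+AD+BJ and LowAhR the points separate in the stress keratins and the cell cycle list (higher) and in the adipocyte list (lower), and they overlap in the hair follicle list. In skeletal muscle the highest LowAhR+AD+BJ library (17539 CPM) lies just below the lowest LowAhR library (18351 CPM).

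The AhR itself and its best known targets were not called. Ahr had 19.97, 11.8, 30.9 and 15.2 CPM in LowAhR+AD+BJ and 32.2, 32.2, 27.7 and 20.9 CPM in LowAhR skin, with overlapping groups (adjusted p = 0.439, edgeR). Cyp1a1, the classical target and an enzyme that oxidizes AhR ligands, had 26.7, 11.8, 3.42 and 10.6 CPM in the LowAhR+AD+BJ libraries and 6.76, 3.84, 7.02 and 5.49 CPM in the LowAhR libraries. All LowAhR+AD+BJ libraries but replicate 3 lay above all LowAhR libraries, and the log2 fold change of 1.18 (standard error 0.54) did not pass the test (adjusted p = 0.202, edgeR). Cyp1b1, a target that fibroblasts and other cells express, had 79.6, 59.01, 78.7 and 61.3 CPM with DNCB and BJIKT against 40.8, 22.9, 69.8 and 39.5 CPM on the diet alone (adjusted p = 0.169, edgeR). In Cyp1b1 LowAhR replicate 3 lay above LowAhR+AD+BJ replicates 2 and 4. All LowAhR+AD+BJ libraries lay above the remaining LowAhR libraries. Ahrr had 0.7296, 1.53, 5.597 and 5.04 CPM in LowAhR+AD+BJ and 4.596, 19.95, 2.86 and 4.65 CPM in LowAhR skin (adjusted p = 0.425, edgeR). In Ahrr the groups overlapped through LowAhR+AD+BJ replicates 3 and 4. Against LowAhR+AD the log2 difference of Cyp1a1 was 0.84 with a 95% interval of -0.27 to 1.95, and that of Cyp1b1 was 0.54 with an interval of -0.07 to 1.15. Both intervals hold 0. Of all 20 AhR pathway genes 1 rose by edgeR, a share near the 3.64% of all tested genes. It was Ero1l, an oxidase of protein folding, from 41.4 ± 13.4 to 109.5 ± 37.4 CPM (SD, n = 4, adjusted p = 0.0155, edgeR). In edgeR 7 of the 20 had an unadjusted p under 0.05, as did 3291 of all 14854 tested genes. DESeq2 called 4 of the 20 and limma voom 2. Among the AhR pathway genes 0 to 4 were called with 1 library left out, fewest without LowAhR replicate 1 or 2 or LowAhR+AD+BJ replicate 2, and most without LowAhR+AD+BJ replicate 3.

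The windows before Cyp1a1 and Ahrr are shown because AhR binds DNA at the core GCGTG, in capitals there with the TATA box TATAAA. Cyp1a1 (chr9:57697363-57697612, plus strand) and Ahrr (chr13:74292332-74292581, minus strand) are given 5′ to 3′ from RefSeq, GRCm38.p6.
Cyp1a1: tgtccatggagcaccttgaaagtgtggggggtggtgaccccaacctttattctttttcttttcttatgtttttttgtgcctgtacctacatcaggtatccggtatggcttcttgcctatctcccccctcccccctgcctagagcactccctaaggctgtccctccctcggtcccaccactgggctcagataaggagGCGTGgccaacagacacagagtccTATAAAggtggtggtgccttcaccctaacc
Ahrr: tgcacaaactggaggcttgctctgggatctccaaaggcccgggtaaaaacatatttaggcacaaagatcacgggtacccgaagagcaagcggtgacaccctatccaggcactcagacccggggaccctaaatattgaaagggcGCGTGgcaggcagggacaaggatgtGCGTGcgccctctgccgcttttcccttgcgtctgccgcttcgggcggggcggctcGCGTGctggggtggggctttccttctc
The core stood 54 bases before the start of Cyp1a1, and 107, 82 and 27 bases before that of Ahrr, read on either strand. It is a short string, present in 28.2% of all windows, 42.9% of those of tested genes, 42.2% of those of genes called higher and 39.6% of those of genes called lower.

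Of 45 genes of glutathione and of the oxidative stress factor NRF2, 7 rose and 1 fell, and 3 to 12 were called with 1 library left out, fewest without LowAhR replicate 3. Gsta4, a transferase that removes lipid peroxidation products, had 383, 333, 53.9 and 323 CPM in the LowAhR+AD+BJ libraries and 33.7, 13.4, 17.3 and 7.63 CPM in the LowAhR libraries (log2 fold change 3.92, standard error 0.64, adjusted p = 0.002201, edgeR). In Gsta4 every LowAhR+AD+BJ library lay above every LowAhR library, and LowAhR+AD+BJ replicate 3 came nearest to LowAhR skin. Gpx2, a peroxidase of epithelia, and Slc7a11, the cystine importer, rose from means of 5.11 and 2.04 to 66.2 and 20.8 CPM (adjusted p = 0.0387 and 0.0419, edgeR). Gstz1, of tyrosine breakdown, fell from 102 ± 34.5 to 45.9 ± 13.8 CPM (SD, n = 4, adjusted p = 0.0114, edgeR). The ferritin genes Fth1 and Ftl1 were not called (adjusted p = 0.749 and 0.691, edgeR). Of 23 cytochrome P450 genes outside the CYP1 family, 2 rose (Cyp2g1 and Cyp17a1) and 1 fell (Cyp27a1), and 0 to 8 were called with 1 library left out, fewest without LowAhR replicate 1 or LowAhR+AD+BJ replicate 4, and most without LowAhR+AD+BJ replicate 3. Cyp17a1, a steroid hydroxylase, rose (13.1 to 49.8 CPM against 0.128 to 9.49 CPM, adjusted p = 0.0321, edgeR). Cyp27a1, a sterol hydroxylase, fell (13.3 to 37.9 CPM against 34.9 to 56.6 CPM, adjusted p = 0.0391, edgeR). Cyp26b1, which degrades retinoic acid, was abundant and not called (adjusted p = 0.541, edgeR). Gsta4 stayed called in all 12 fits that left out 1 library, whereas fits without 1 library lost the call for Ero1l, Slc7a11, Cyp17a1 and Cyp27a1 (adjusted p = 0.07003, 0.137, 0.118 and 0.1400 without LowAhR+AD+BJ replicate 2) and Gpx2 and Gstz1 (adjusted p = 0.1104 and 0.0505 without LowAhR replicate 3), each at its highest p from edgeR.

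By fitted change, the 3 largest rises in LowAhR+AD against LowAhR were in Cxcl5, Chil3 and Il24, which had no count in LowAhR skin, so that the order of their folds is not measured. Their LowAhR+AD means were 58.4, 41.6 and 17.7 CPM against 49.4, 42.99 and 12.7 CPM in LowAhR+AD+BJ. The 3 largest falls by fitted change in LowAhR+AD were Mucl1, Dab1 and Apol7a. Mucl1, a secreted mucin-like protein, had no count in any LowAhR+AD library, 0, 0.203, 10.8 and 1.11 CPM in the LowAhR+AD+BJ libraries and 25.1, 8.95, 25.2 and 23.7 CPM in the LowAhR libraries. It was not called against LowAhR (adjusted p = 0.137, edgeR). Dab1, an adaptor of reelin signalling, had 0, 0, 7.93 and 0 CPM with DNCB and BJIKT against 27.03, 16.8, 15.3 and 17.4 CPM on the diet alone (adjusted p = 0.101, edgeR), with 0 to 0.544 CPM in LowAhR+AD. Apol7a, an apolipoprotein L gene, had 1.28, 2.03, 2.798 and 2.82 CPM in LowAhR+AD+BJ and 14.7, 11.9, 9.75 and 10.02 CPM in LowAhR skin (log2 fold change -2.37, standard error 0.65, adjusted p = 0.0363, edgeR). Its LowAhR+AD libraries had 0, 0, 0.388 and 0 CPM, and the log2 difference of LowAhR+AD+BJ from LowAhR+AD was 4.34 (95% interval 2.62 to 6.06, unadjusted p = 4.72e-05, adjusted p = 0.193, edgeR).

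The differences between LowAhR+AD+BJ and LowAhR+AD that met the naming rule passed an unadjusted p of 0.05 only, since 0 genes were called there. Mylk4, a kinase of striated muscle, had 6.84, 3.56, 30.5 and 6.05 CPM in LowAhR+AD+BJ, 0.686, 1.15, 0.0777 and 0.321 CPM in LowAhR+AD and 22.03, 57.7, 54.3 and 87.4 CPM in LowAhR skin. Its log2 difference from LowAhR+AD was 4.38 (95% interval 2.79 to 5.96, unadjusted p = 1.69e-05, adjusted p = 0.193, edgeR). Itgb1bp2 (melusin, also of striated muscle) had 16.9, 12.2, 23.7 and 8.57 CPM, 4.35, 2.71, 1.17 and 4.65 CPM and 32.6, 23.5, 57.98 and 44.6 CPM in the same order of groups. Its difference was 2.25 (95% interval 1.35 to 3.15, unadjusted p = 5.20e-05, edgeR). Sprr4, an SPRR gene, had 12.8 to 25.7, 0 to 7.297 and 2.73 to 19.1 CPM. Fmnl3, Flywch1 and Vgll4 were lower than in LowAhR+AD at an unadjusted p of 0.00806, 0.00956 and 4.96e-04, with means of 2.904, 3.83 and 6.53 CPM against 15.3, 19.7 and 21.6 CPM. Without LowAhR+AD replicate 1, 0 genes were called between these groups.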

How the data were processed

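RNA from the dorsal skin of 16 mice had been made into 3′ libraries with the QuantSeq kit (1 library per mouse, oligo-dT primed) and read as single reads on a NextSeq 500. The deposited files hold raw read counts per gene symbol, 1 file for each library. For the making of these counts the submitters' processing notes name the mouse build mm10, Bowtie2 and bedtools. Versions, strand handling and what was done with reads of several possible genes are not given in the sources used here. Every file held 23282 rows, and no column of per-sample values was left unused (0).

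Groups and replicate numbers were taken from the labels. Rows with enough counts in the 16 libraries (filterByExpr of edgeR, minimum count 10, minimum total 15) were tested, 14854 in all. A quasi-likelihood fit in edgeR 4.0.16 (R 4.3.3) with TMM factors and 1 mean for each of the 4 groups gave log2 fold changes, standard errors and Benjamini-Hochberg adjusted p-values over all tested rows, and "called", "rose" and "fell" mean an adjusted p under 0.05. The fit was tested on simulated data. CPM were scaled by TMM factors. The total counts set the precision, since 3 counts (the limit that a count of 0 allows) came to 0.233 to 0.406 CPM in the 8 libraries compared. Ratios of group totals with 1 to 3 counts carry exact 95% binomial intervals. Values of whole libraries were compared by two-sided exact permutation tests.

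Each result was recomputed with other scaling factors (RLE, upper quartile), other tests (DESeq2 1.42.0, limma voom 3.58.1), other filters (none, or 10 counts in every library), a block for the replicate number, a threshold of 2-fold on the change, a model of the 8 libraries alone, scaling without genes of hair, muscle, fat and sebaceous glands, and 1 library left out at a time. The same replicate numbers appear in all groups, but deviations from the group means of same-numbered libraries correlated at -0.051 to 0.054, and the numbers were not taken to pair the mice.

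The comparison and the gene lists were chosen with earlier results of these data known. Genes were named by rule: the 8 largest changes each way among called genes with a group mean of at least 10 CPM and no overlap, up to 3 called rises and 3 called falls of each list with such a mean, the 2 most abundant members of each list that were not called, the genes the study followed, and the 3 largest changes each way of LowAhR+AD against LowAhR and of LowAhR+AD+BJ against LowAhR+AD. Krt1, Krt6a, Krt17, Cd207, Cxcr2 and the other defining markers outside that rule are named because of their lists. Promoter windows (250 bases before the transcript start) came from RefSeq on GRCm38.p6 and matched 11155 of the 14854 tested genes. Some genes that meet the rule are not reported here.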

Additional observations from a re-analysis of the deposited data

Results flagged for a closer look

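In 18 of 145 groups of 4 libraries whose values are given in the report, the highest or the lowest library stood farther from the others than Dixon's test allows at the 95% level. Chance flags about 1 in 20 groups, which is 7.25 of 145.

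LowAhR+AD+BJ replicate 3 was the high library in 8 of the 18. Its total was 12999055 counts, against 10614393 to 11016181 counts in the other 3 libraries of its group. It had 8.71 CPM of Cd207, 7.93 CPM of Dab1 and 10.8 CPM of Mucl1, where the other 3 had at most 1.11 CPM. Cd74 stood at 877 CPM against 214 to 295 CPM, and Retnla at 994 CPM against 105 to 162 CPM. The muscle genes Myh8 and Mylk4 stood at 9.72 and 30.5 CPM, against 2.62 to 3.65 and 3.56 to 6.84 CPM. In each of these 7 genes the library lay nearer to the LowAhR group than the other 3 did.

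LowAhR+AD+BJ replicate 1 was high in Saa1 (99.96 CPM against 10.4 to 14.3 CPM) and low in Slc24a3 (1.00 CPM against 4.13 to 4.48 CPM). In the LowAhR group, replicate 2 was high in Ahrr (19.95 CPM against 2.86 to 4.65 CPM) and Scd3 (416 CPM against 293 to 309 CPM) and low in Mucl1 (8.95 CPM against 23.7 to 25.2 CPM). LowAhR replicate 3 was high in Il1b (20.9 CPM against 5.27 to 6.65 CPM) and low in Cdk1 (16.5 CPM against 25.4 to 27.0 CPM), and LowAhR replicate 1 was high in Ivl (382 CPM against 251 to 260.4 CPM). LowAhR+AD replicate 3 was high in Flg2 (492 CPM against 14.9 to 74.7 CPM) and was the only library of its group with counts of Apol7a (0.388 CPM).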

How the results depend on the processing

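The 1005 calls between LowAhR+AD+BJ and LowAhR became 923 to 1206 under both other scalings, limma voom, both other filters, scaling without hair, muscle, fat and sebaceous genes and a model of only the 8 libraries compared. DESeq2 called 1676 and a minimum change of 2-fold left 60. Leaving out 1 library gave 414 to 1716 calls: 606, 519 and 556 without LowAhR replicates 1, 2 and 3, 602, 414 and 453 without LowAhR+AD+BJ replicates 1, 2 and 4, and 1716 without LowAhR+AD replicate 1. With the replicate block 947 were called, and 805 with the block in only the 8 libraries, a setting chosen after seeing the data, as was leaving out LowAhR+AD replicates 2 to 4. Same-numbered libraries did not deviate together. Of the 47 genes whose log2 fold change against LowAhR is given, 44 were called, none (0) changed direction under any of these settings, and at most 12 lost the call without 1 library. A minimum change of 2-fold took the call from 22, and limma voom from 6. In LowAhR+AD against LowAhR, 1876 calls became 765 with only its 8 libraries, 128 with the replicate block added, 199 at a minimum of 2-fold and 1128 to 2015 with 1 library left out, lowest without LowAhR replicates 1, 2 and 3. Between LowAhR+AD+BJ and LowAhR+AD, 0 calls became 17 with DESeq2 and 0 to 1 with 1 library left out. The log2 difference of Flg2 there, 0.61, ran from -0.44 without LowAhR+AD+BJ replicate 3 to 2.39 without LowAhR+AD replicate 3. The cause of these shifts was not tested. Genes with few counts, such as Saa2 and 2010005H15Rik, have wide intervals at this depth.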

Other observations

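Several gene families outside the lists, chosen after their values were seen, are given as values only. All 8 genes of the chaperonin CCT, which folds actin and tubulin, had a fitted change above 0 in LowAhR+AD+BJ against LowAhR, and 5 rose and 0 fell, with a median log2 fold change of 0.71. In LowAhR+AD against the same LowAhR libraries 4 of them rose (6.42% of all genes rose there). The summed level of the 8 genes was 1569 to 2495 CPM in the LowAhR+AD+BJ libraries and 1195 to 1393 CPM in the LowAhR libraries. Of 10 Srsf genes, which encode splicing factors, 4 rose and 0 fell (median 0.50), and of 18 cytosolic aminoacyl-tRNA synthetase genes 2 rose and 1 fell (median 0.39, 17 above 0). Of 80 cytosolic ribosomal protein genes 1 rose and 0 fell, with a median of 0.19. Of 45 genes of complex I of the respiratory chain 0 rose and 1 fell, with a median of 0.03. Of 15 Klf transcription factor genes 0 rose and 3 fell, with a median of -0.69. Over all tested genes 3.64% rose and 3.12% fell.

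Of the 11 tested Skint genes, which belong to a family known for selecting γδ T cells of mouse epidermis, 0 were called by edgeR in LowAhR+AD+BJ against LowAhR, where 4 had an unadjusted p under 0.05, DESeq2 called 0 and limma voom 3. All 11 had a fitted change below 0, with a median of -2.18. Their summed level was 31.6 to 283 CPM in the LowAhR+AD+BJ libraries and 289 to 694 CPM in the LowAhR libraries. In LowAhR+AD, with 12.96 to 241 CPM, 5 of the 11 fell, with a median of -2.98 (6.21% of all genes fell there). Of the 49 Krtap genes, which encode matrix proteins of the hair shaft, 0 were called against LowAhR by edgeR, where 12 had an unadjusted p under 0.05, DESeq2 called 0 and limma voom 8. Over all 14854 tested genes, 3291 had such a p in edgeR, and DESeq2 and limma voom called 1676 and 1005. All 49 had a fitted change above 0, with a median of 2.00. The summed level of the Krtap genes was 21144 to 54110 CPM in the LowAhR+AD+BJ libraries, and it spread from 88.8 to 23227 CPM in the LowAhR libraries.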
